A study of Bos taurus with 30 samples.

Results

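Extracellular proteases and their inhibitors were followed in day 15 bovine embryos as 104 genes of the 35092 in the count table. They were chosen by symbol, as the matrix metalloproteinases (MMP), their tissue inhibitors (TIMP), the ADAM, ADAMTS and ADAMTS-like proteins, cathepsins, serpins, HTRA proteases, the urokinase gene and its receptor, Kunitz inhibitors (SPINT) and PRSS proteases. A symbol had to match 1 of these families and the gene had to hold 10 or more counts in at least 3 libraries. 154 symbols matched, and 50 of them stayed under the counts. A few matching genes are not extracellular proteases or inhibitors: HTRA2 acts in mitochondria, SERPINH1 is a collagen chaperone of the endoplasmic reticulum, several SERPINB proteins stay inside the cell, and MMP24OS is the gene opposite to MMP24.

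The embryos were either produced in vitro (IVP) or conceived in vivo (IVV), and each was divided into the embryonic disc (ED) and the extra-embryonic membranes (EEM) at day 15. For IVP, oocytes from slaughterhouse ovaries were matured, fertilized and cultured without serum, placed in 2 recipient cows at day 7 and flushed from them at day 15. For IVV, 2 superovulated cows were inseminated with semen of the same Holstein bull and flushed at the same age, so the procedure cannot be told apart from the oocyte source and the uterus in which the embryo grew. The paper also reports that IVP embryos were shorter than IVV embryos at collection, and that fewer of them had a disc. Embryo length was not a term in the fits here, so the procedure cannot be told apart from embryo size either. The 30 poly(A), non-stranded RNA libraries came from 7 IVP and 9 IVV ED and from 6 IVP and 8 IVV EEM, and 13 embryos (5 IVP and 8 IVV) gave both tissues.

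Matrix metalloproteinases, ADAM and ADAMTS proteins are zinc enzymes that cut collagens, proteoglycans and the extracellular parts of membrane proteins, and TIMP proteins block them. Urokinase (PLAU) and its relative PLAT turn plasminogen into plasmin, which serpins such as SERPINE2 and SERPINF2 restrain at different steps. In the elongating ruminant conceptus these enzymes and inhibitors are known from the trophoblast, from the remodelling of basement membranes during gastrulation and from the fluid shared with the uterus.

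Each library held 48713218 to 63037371 counts on genes. More genes had a count in the IVV ED (19131 to 19957) than in the IVP ED (17671 to 18577), and the EEM groups overlapped (17712 to 18497 in IVP, 17753 to 18649 in IVV). The ED held more RNA of epiblast markers than the EEM (summed level 54.7 to 400 CPM, the count per 1e6 counts of the library, against 13.4 to 41.8 CPM). Trophoblast markers summed to 982 to 6125 CPM in the ED and 1733 to 7414 CPM in the EEM, so the ED libraries also held RNA of these genes. By median level, most of this sum was PTGS2 (2742 CPM in the IVP ED and 1697 CPM in the IVV ED). Markers of the maternal uterus summed to at most 26.6 CPM in any library. The labels give no sex. XIST, the RNA of the inactive X chromosome in female cells, was under 1 CPM in each of the 13 IVP libraries and in both tissues of VE3 and VE5, IVV embryos called here by their titles. In the other IVV libraries it was at least 44.9 CPM. The procedure was thus nearly confounded with XIST, and the values of VE3 and VE5 are given with the main results.

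Levels are TMM-scaled CPM, compared within a gene, since no transcript lengths were used. Tests were edgeR quasi-likelihood tests over all genes with Benjamini-Hochberg adjustment, and a member was called when its adjusted p was under 0.05. Log2 fold changes are given with their standard error (SE). A gene was at the floor in a group when no library held more than 3 counts. In bulk tissue, fewer cells of a type and less RNA per cell cannot be told apart.

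A gene that shared its position with another could lose its reads. In the RefSeq annotation of ARS-UCD2.0, 880 protein-coding genes lie inside another gene, and 658 of them (74.8%) had no count in any library, against 1.83% of the genes that overlap in part and 11.4% of those that do not overlap. TIMP1 (inside SYN1), TIMP3 (inside SYN3) and TIMP4 (inside SYN2) were among them, as were SERPINF1, SERPIND1 and ADAM8. Their 0 is therefore no measure of a level, and TIMP2 was the only TIMP gene that could be followed. Of the 50 matching symbols under the counts, 21 were at 0 in every library, and 10 of these lie inside another gene. In the members named here, partial overlap was largest for PRSS51 (88.8% of the gene's span), PRSS23 (87.4%), PRSS8 (73.4%), ADAMTS10 (48.2%) and MMP14 (45.1%), and reads without a strand cannot be split there.

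The first comparison asked how IVP altered proteolysis genes in the ED. Of 89 members tested, 8 fell and 2 rose in IVP, when 4.95% of all tested genes fell and 1.4% rose. The median log2 fold change was 0.11 over the members and -0.01 over all genes, so the members' median was not below that of all genes. By family, 4 of 17 ADAMTS genes, 2 of 4 HTRA genes and 1 of 12 MMP genes were lower, together with 1 of 3 ADAMTS-like genes. The 15 members not tested were too low for the filter. HTRA1, HTRA3, ADAMTS2, ADAMTS13 and ADAMTS20 passed it mainly through the IVV libraries, where they were higher. That these genes were tested thus depended on that group.

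HTRA1, a secreted serine protease that cuts fibronectin and proteoglycans and binds TGF-beta family proteins, showed the smallest p among the members. Its level in the IVP ED was 0 at the lowest, 0.153 at the median and 0.191 CPM at the highest. In the IVV ED it was 1.13, 3.42 and 5.25 CPM. The groups did not overlap, and VE5 and VE3 held the first and second highest IVV levels. The log2 fold change was -4.69 ± 0.53 (adjusted p = 8.94e-06). HTRA1 stayed called in each of the 16 fits without 1 embryo (-4.89 to -4.48). In a fit of the IVP ED against VE3 and VE5 alone, chosen after seeing the data, it was -5.70 (adjusted p = 0.000349). HTRA1 passed the filter on low counts through the IVV ED (64 to 342 counts), since the IVP ED held 0 to 12 counts. All these fits share that limit and are no separate support. With the XIST level as a covariate in all ED libraries, HTRA1, MMP2, ADAMTS10 and ADAMTS13 stayed called and the other 6 members did not.

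HTRA3, the other secreted HTRA protease that fell, ran from 0 through a median of 0.0772 to 0.255 CPM in the IVP ED and from 0.0329 through 0.472 to 1.5 CPM in the IVV ED. VE3 was the lowest and VE5 the highest of the IVV group. The log2 fold change was -2.45 ± 0.70 (adjusted p = 0.0376), and the call was lost in 6 of the 16 fits without 1 embryo, with adjusted p up to 0.13. The mitochondrial HTRA2 did not pass the test (0.15 ± 0.24, adjusted p = 0.843).

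**Figure D1:**
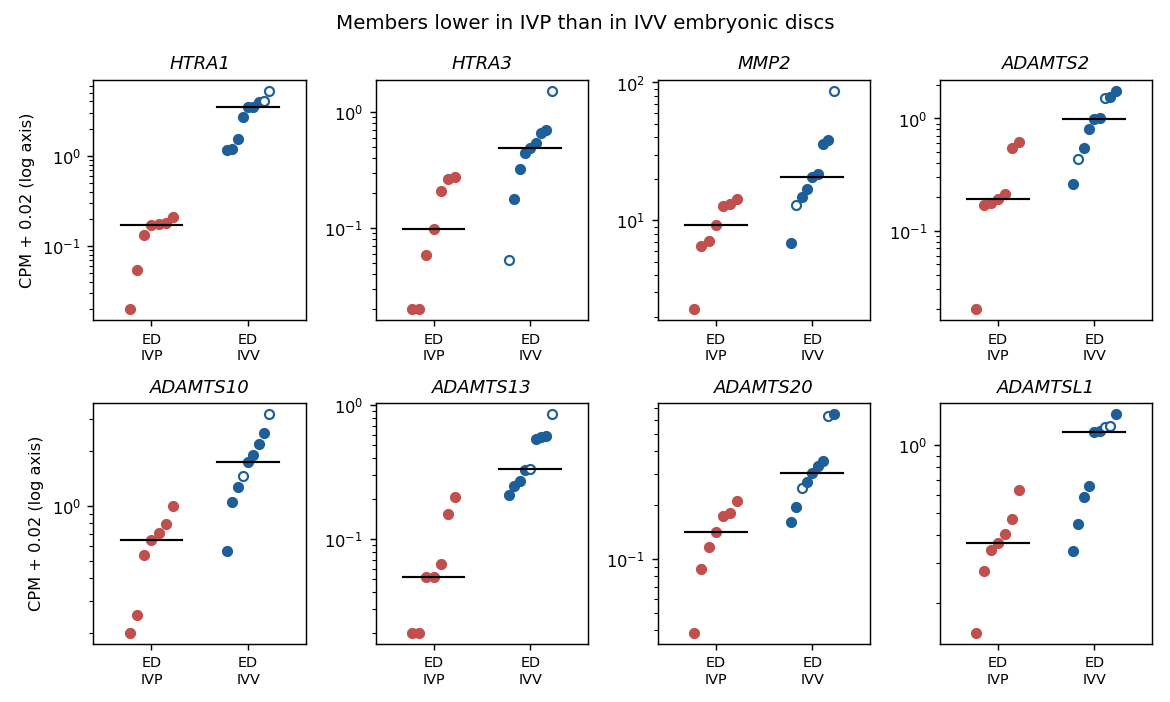
Level of the 8 members that fell in the ED, as CPM plus 0.02 on a log axis, with 1 point per library (red for 7 IVP, blue for 9 IVV), open blue points for VE3 and VE5 (XIST under 1 CPM) and a line at the median. HTRA1 and ADAMTS13 separate the groups, and the other genes overlap.

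MMP2, or gelatinase A, degrades collagen IV and denatured collagen. The IVP ED held 2.25 to 14.3 CPM with a median of 9.29, and the IVV ED held 6.84 to 87.2 CPM with a median of 20.7. The groups overlapped: VE5 was far above the others at 87.2 CPM, and VE4 (6.84 CPM) and VE3 (13 CPM) lay within the IVP range. The log2 fold change was -1.66 ± 0.44 (adjusted p = 0.0231), and the call was lost without VE5, VE28 or VE29 (adjusted p up to 0.0844). Against VE3 and VE5 alone it was -2.13 (adjusted p = 0.0977). The other gelatinase, MMP9, was too low to be tested, with medians of 0.0193 CPM in the IVP ED and 0.116 CPM in the IVV ED.

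Among the ADAMTS genes, ADAMTS13 cleaves von Willebrand factor. It had 0 to 0.186 CPM in the IVP ED (median 0.0321) and 0.194 to 0.829 CPM in the IVV ED (median 0.313), without overlap and with VE5 highest. It fell by 2.72 ± 0.61 on the log2 scale (adjusted p = 0.00795). ADAMTS13 passed the filter mainly through the IVV ED (11 to 54 counts, against 0 to 10 in the IVP ED).

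ADAMTS10, which acts on fibrillin microfibrils, had 0.181 to 0.975 CPM in the IVP ED (median 0.631) and 0.545 to 3.15 CPM in the IVV ED (median 1.72), and only VE4 lay within the IVP range. It fell by 1.83 ± 0.42 (adjusted p = 0.0089). Both calls held in all 16 fits without 1 embryo, though for ADAMTS13 these fits share the limit of the filter. With VE3 and VE5 as the only IVV libraries, the log2 fold changes were -3.60 for ADAMTS13 (adjusted p = 0.273) and -1.65 for ADAMTS10 (adjusted p = 0.341).

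ADAMTS2, the procollagen N-proteinase, had medians of 0.172 CPM in the IVP ED and 0.968 CPM in the IVV ED (ranges 0 to 0.598 and 0.241 to 1.75). It fell by 1.93 ± 0.56 (adjusted p = 0.0401). ADAMTS20, a versican-cleaving protease, had medians of 0.122 and 0.281 CPM and fell by 1.61 ± 0.47 (adjusted p = 0.039). The ADAMTS-like ADAMTSL1, a matrix protein without a protease domain, had medians of 0.348 and 1.13 CPM and fell by 1.31 ± 0.40 (adjusted p = 0.0492). These calls were the less stable ones: ADAMTS2 kept its call in 7, ADAMTS20 in 6 and ADAMTSL1 in 3 of the 16 fits without 1 embryo, with adjusted p up to 0.111.

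Of the members that rose, ADAM19, or meltrin beta, is a membrane protease that sheds neuregulins. It had 33.2 to 152 CPM in the IVP ED (median 64) and 25.2 to 49.7 CPM in the IVV ED (median 43.6). The highest value was that of IVP14, and IVP10 was the only IVP library inside the IVV range. The log2 fold change was 0.91 ± 0.24 (adjusted p = 0.025), lost without IVP14 or IVPF14 (adjusted p up to 0.06). PRSS23, a secreted trypsin-like protease, had medians of 52 and 36 CPM and rose by 0.88 ± 0.26 (adjusted p = 0.0439). Its call held in 7 of the 16 fits, with adjusted p up to 0.12, and most of the gene's span is shared with other genes.

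Some members were too low for the test but lay at the floor in the IVP ED. They were chosen after their values were seen. PRSS56 held at most 1 count in any IVP ED and was at least 7.51-fold lower than the IVV mean of 0.415 ± 0.378 CPM (SD, n = 9), although VE3, VE5 and VE26 held none. ADAMTSL2, another matrix protein of the ADAMTS-like group, was at least 3.58-fold lower. MMP27 was at least 2.56-fold lower.

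Genes of the primitive streak and mesoderm were also lower in the IVP ED. Of 9 markers, 7 fell in IVP, when 4.95% of all tested genes fell. None rose, although PDGFRA had a higher median in the IVP ED (39.6 CPM) than in the IVV ED (24 CPM). The summed level of the 9 was 44.3 to 103 CPM in the IVP ED against 86.9 to 186 CPM in the IVV ED. Of 6 endothelial and blood markers tested, 3 fell, with summed levels of 4.96 to 15 CPM against 4.68 to 51.5 CPM. Among the 6, FLI1 passed the filter on low counts through the IVV ED (median 2.62 CPM), since the IVP ED held at most 0.0193 CPM. Of 4 epiblast markers tested, 1 fell, and the summed level was 58.4 to 94.8 CPM against 54.7 to 400 CPM. None of 8 trophoblast and 8 hypoblast markers tested fell or rose. Of 6 maternal uterus markers, MUC1 rose (1.10 ± 0.27, adjusted p = 0.0162), and the summed level was 11.2 to 26.6 CPM in the IVP ED against 8.1 to 17.1 CPM in the IVV ED. The epiblast marker SOX2, which lies inside another gene in RefSeq, was at 0 in every library, and no streak marker was at 0 throughout a group of ED. The part of these cell types in the result was not tested.

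Plasminogen activation genes, serpins and cathepsins did not pass the test in the ED. PLAU held 301 to 1275 CPM in the IVP ED (median 854) and 332 to 1190 CPM in the IVV ED (median 717), with a log2 fold change of 0.28 ± 0.28 (adjusted p = 0.688). Its receptor PLAUR had medians of 2.59 and 0.955 CPM (0.78 ± 0.44, adjusted p = 0.368). None of the 5 plasminogen activation genes, 12 other serpins, 2 SPINT genes or 13 cathepsins tested was called. At an unadjusted p under 0.05 there were 0, 2, 1 and 1, in that order, when 2902 of all 15733 tested genes had such a p. DESeq2 called none of these members either.

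ADAM10, which cleaves Notch, and ADAM17, which releases TNF and EGF family ligands from the membrane, were well covered in every library. They had IVP medians of 166 and 64.6 CPM and IVV medians of 119 and 45.3 CPM. ADAM10 had a log2 fold change of 0.45 ± 0.16 (adjusted p = 0.117), and ADAM17 of 0.32 ± 0.18 (adjusted p = 0.355). DESeq2 and the edgeR fit without IVP11 called ADAM10 as higher in the IVP ED. The cysteine cathepsins CTSB (0.37 ± 0.22) and CTSL (0.02 ± 0.25) and the aspartic cathepsin CTSD (0.04 ± 0.25) had adjusted p of 0.414, 0.985 and 0.962. SPINT1, the inhibitor of the membrane protease matriptase and of HGF activator, had a log2 fold change of 0.56 ± 0.22 (adjusted p = 0.15), and SPINT2 of 0.14 ± 0.22 (adjusted p = 0.841). TIMP2, which inhibits MMP2 and also takes part in its activation, had medians of 8.44 and 9.62 CPM (-0.03 ± 0.33, adjusted p = 0.978).

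Of other genes of pericellular proteolysis, listed by role, 5 of 25 proteases fell and 1 rose in the IVP ED. PLAT, or tissue plasminogen activator, had 0.186 to 0.559 CPM in the IVP ED and 0.382 to 7.75 CPM in the IVV ED, and fell by 3.84 ± 0.48 (adjusted p = 2.72e-05). The carboxypeptidase CPZ fell by 2.48 ± 0.53, and the tolloid-like protease TLL2 by 1.76 ± 0.42. CPZ passed the filter on low counts mainly through the IVV ED (0.123 to 1.83 CPM), since the IVP ED held 0.0638 to 0.144 CPM. The membrane peptidase MME fell by 1.07 ± 0.32, and TMPRSS4 by 1.02 ± 0.31. DPP4, a dipeptidyl peptidase of the cell surface, rose by 1.62 ± 0.31 (adjusted p = 0.00221).

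Of 17 other inhibitors tested, SPOCK1 and SPOCK2, testican proteoglycans, fell by 2.48 ± 0.44 and 1.51 ± 0.39. Of 17 receptors and cofactors, LRP1, the endocytic receptor for complexes of proteases with their inhibitors, fell by 0.94 ± 0.27 (adjusted p = 0.04). The medians of these lists were -0.21, -0.24 and -0.04, against -0.01 over all genes.

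The second comparison asked the same of the EEM. Of 78 members tested, 4 rose and 1 fell in IVP, when 2.29% of all tested genes rose and 1.52% fell. The median log2 fold change was 0.25 over the members and 0.00 over all genes. Those that rose were 2 of 11 MMP and 2 of 11 PRSS genes, and the 26 members not tested included HTRA1, HTRA3 and 8 of 18 ADAMTS genes.

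MMP14, the membrane-bound collagenase that activates MMP2, had 1.22 to 3.68 CPM in the IVP EEM (median 2.08) and 0.149 to 1.16 CPM in the IVV EEM (median 0.962). The groups did not overlap. It rose by 1.49 ± 0.35 (adjusted p = 0.0126), in all 14 fits without 1 embryo (1.26 to 1.76). VE3 and VE5 had 0.987 and 0.937 CPM and lay close to the IVV median, and against these alone the log2 fold change was 1.16 (adjusted p = 0.371). MMP2 itself was low in both EEM groups (medians 0.302 and 0.203 CPM, 0.45 ± 0.45, adjusted p = 0.837).

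MMP23, a membrane-anchored metalloproteinase, had medians of 24.7 CPM in the IVP EEM and 12.6 CPM in the IVV EEM, and its ranges overlapped widely (14.2 to 41.7 and 9.3 to 34.5). It rose by 0.77 ± 0.21 (adjusted p = 0.0339). The call held in 5 of 14 fits without 1 embryo, with adjusted p up to 0.103.

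PRSS21, or testisin, a membrane-anchored serine protease, had 0.327 to 1.1 CPM in the IVP EEM (median 0.798) and 0.0728 to 0.374 CPM in the IVV EEM (median 0.169). Only IVP10 lay inside the IVV range. It rose by 2.07 ± 0.40 (adjusted p = 0.00218). PRSS42, another serine protease gene of the PRSS family, had 2.31 to 6.07 CPM (median 4.7) and 0.723 to 2.75 CPM (median 1.35), and rose by 1.49 ± 0.32 (adjusted p = 0.00652). Both calls held in all 14 fits without 1 embryo. Against VE3 and VE5 alone, PRSS21 was at 1.93 (adjusted p = 0.24) and PRSS42 at 1.78 (adjusted p = 0.139). With the XIST level as a covariate, none of the 4 genes that rose in the EEM stayed called (adjusted p 0.167 to 0.833).

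ADAM12, or meltrin alpha, which also cleaves IGF-binding proteins, was the member that fell in the EEM. The IVP EEM held at most 1 count in any library. The IVV EEM ran from 0 to 0.664 CPM with a median of 0.444, and 6 of 8 embryos were at 0.41 CPM or more, while VE4 and VE24 held none. It was at least 6.75-fold lower than the IVV mean of 0.397 ± 0.262 CPM (SD, n = 8). The fitted change was called (adjusted p = 0.000995), also against VE3 and VE5 alone (adjusted p = 0.00872). ADAM12 passed the filter on low counts only through the 6 IVV libraries where it was high, and without any 1 of those 6 it had no test. VE3 and VE5 are both among those 6, so the fit against them alone is no separate support.

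**Figure D2:**
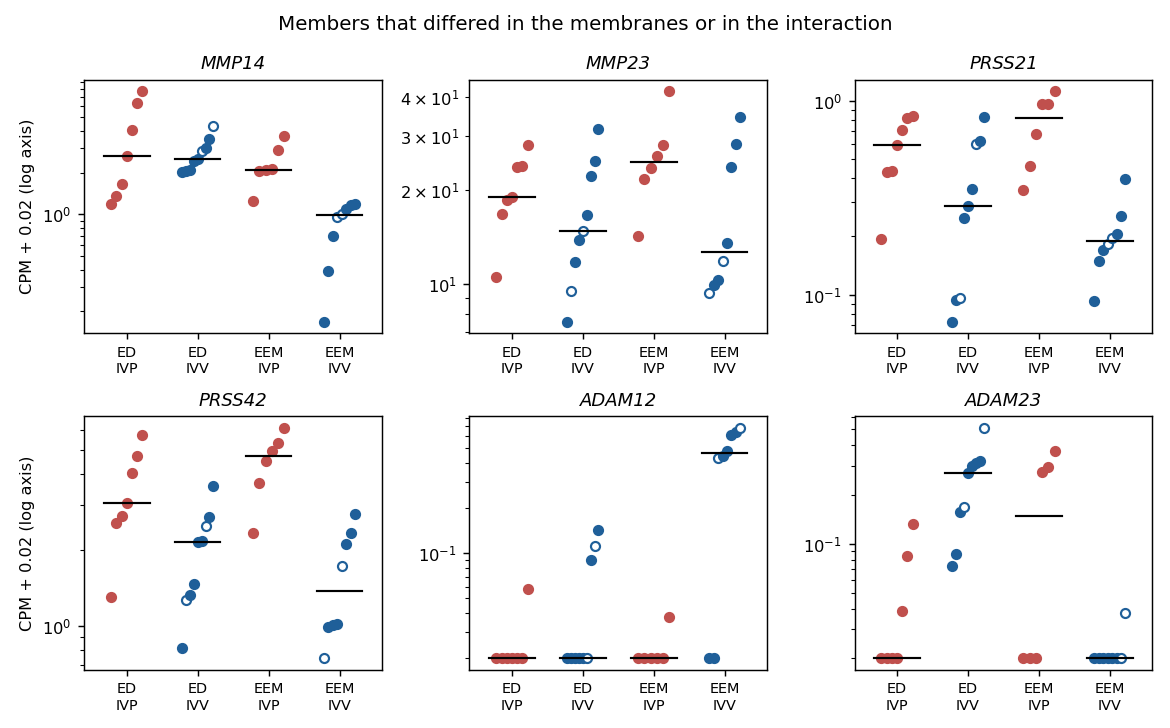
Level of 6 members in the 4 groups, as CPM plus 0.02 on a log axis, with 1 point per library (red for IVP, blue for IVV), open blue points for VE3 and VE5 and a line at the median. MMP14, PRSS21 and PRSS42 have their lowest median in the IVV EEM, and ADAM12 is above 0.1 CPM only in 6 IVV EEM and 1 IVV ED. ADAM23 has a higher median in IVV in the ED and, over all 6 IVP libraries, in IVP in the EEM.

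At the floor in 1 EEM group, and chosen after their values were seen, were PRSS51 and MMP19. PRSS51 was at 0 to 1.41 CPM in the IVP EEM (median 0.796), with only IVPF13 at 0, and at least 13.1-fold higher there than in the IVV EEM. Its span is shared to 88.8% with another gene. MMP19 was at least 4.87-fold lower in the IVP EEM than the IVV mean of 0.286 ± 0.316 CPM (SD, n = 8).

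PLAU (0.26 ± 0.27), TIMP2 (0.31 ± 0.36), CTSB (0.31 ± 0.27), CTSL (-0.12 ± 0.28), CTSD (0.38 ± 0.23), ADAM10 (0.27 ± 0.24) and ADAM17 (0.31 ± 0.23) had adjusted p between 0.539 and 0.979 in the EEM. PLAUR had medians of 1.39 CPM in the IVP EEM and 0.688 CPM in the IVV EEM and missed the threshold (1.65 ± 0.50, adjusted p = 0.0621). None of 8 trophoblast markers was called in the EEM, and their summed level was 2284 to 7414 CPM in IVP and 1733 to 4288 CPM in IVV. Of 8 hypoblast markers tested, TTR fell, and the summed level was 999 to 2041 CPM in IVP against 482 to 1958 CPM in IVV. By median level, most of this sum was APOA1 (1246 CPM in IVP and 860 CPM in IVV). Of 6 streak and mesoderm markers tested, SNAI2 fell (-2.17 ± 0.58, adjusted p = 0.0333), and the summed level was 17.4 to 42.3 CPM against 22.5 to 39.1 CPM. The part of these cell types in the EEM values was not tested. TTR and SNAI2 passed the filter on low counts mainly through the IVV EEM, where they were higher. Their IVV EEM medians were 1.78 and 0.303 CPM, and their IVP EEM levels were at most 0.0219 and 0.176 CPM. Of the other genes of pericellular proteolysis, DPP4 (2.05 ± 0.32, adjusted p = 0.000255) and the sorting receptor SORL1 (1.33 ± 0.36, adjusted p = 0.0336) rose in the IVP EEM, and none fell.

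The third comparison set the ED against the EEM of the same 13 embryos, with embryo as a block. Of 97 members tested, 26 were higher and 9 lower in the ED, when 14.4% of all tested genes were higher and 10.1% lower. The median log2 fold change was 0.14 over the members and -0.09 over all genes. By role, 8 of 17 ADAMTS genes, 5 of 15 MMP genes, 3 of 11 ADAM genes, 2 of 4 HTRA genes, 3 of 13 other serpins and 2 of 5 plasminogen activation genes were higher. Of 11 cysteine cathepsins, 1 was higher. ADAMTS10, ADAMTS13, ADAMTS14, ADAMTS20, HTRA1 and HTRA3 held under 10 counts in every EEM library and passed the filter on low counts through the ED. ADAMTS2, ADAMTS8, MMP28, SERPINA1 and SERPINA5 passed it mainly through the ED, and ADAM12, lower in the ED, through the IVV EEM. That these genes were tested thus depended on the tissue where they were higher.

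**Figure D3:**
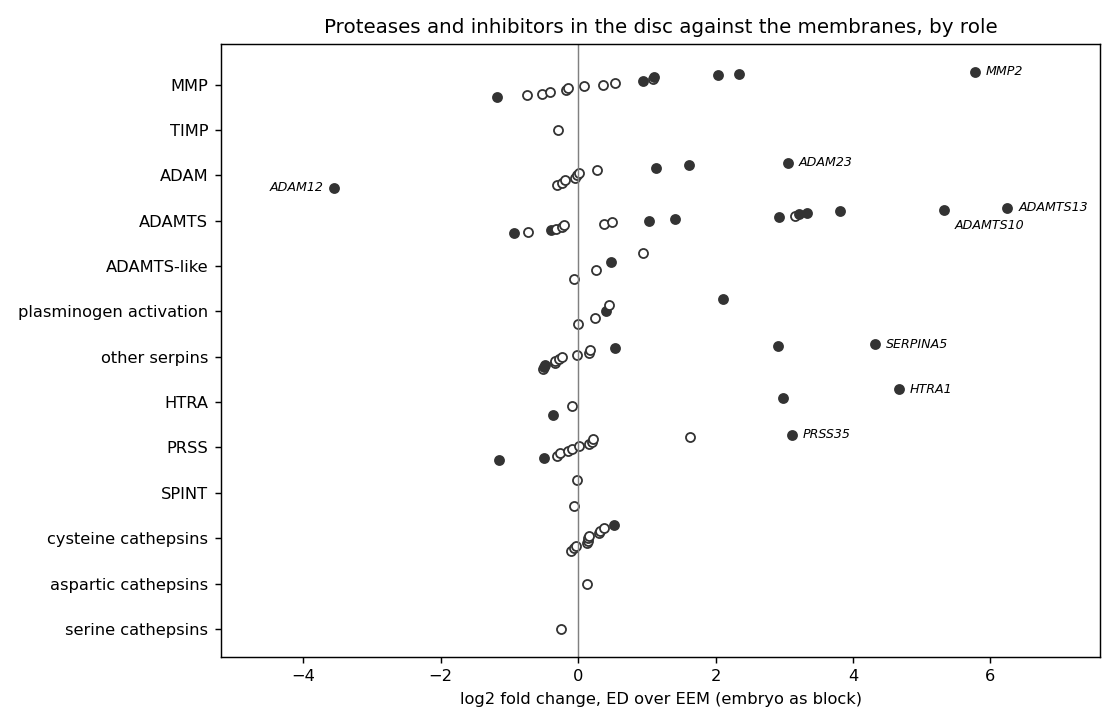
Log2 fold change of the ED over the EEM for the 97 members tested, by role, with 1 point per gene (filled where the adjusted p was under 0.05). ADAMTS13, MMP2, ADAMTS10, HTRA1 and SERPINA5 lie farthest to the right and ADAM12 farthest to the left, and the SPINT, aspartic and serine cathepsin points lie near 0.

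MMP2 had the smallest p. It ran from 2.25 to 87.2 CPM in the 13 ED (median 13.1) and from 0.106 to 0.67 CPM in the EEM (median 0.242). The tissues did not overlap, and the ED was higher in 13 of 13 embryos. The log2 fold change was 5.78 ± 0.40 (adjusted p = 2.72e-09). It was 6.74 in the 8 IVV embryos and 4.43 in the 5 IVP embryos, each with embryo as a block.

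Of the ADAMTS genes that were lower in the IVP ED, ADAMTS10 (5.33 ± 0.52, adjusted p = 3.4e-07), ADAMTS2 (3.82 ± 0.61, adjusted p = 0.000114) and ADAMTS20 (3.33 ± 0.58, adjusted p = 0.000277) were higher in the ED in 13 of 13 embryos. In IVP, ADAMTS20 rested on few counts (1 to 12 in the ED and 0 to 4 in the EEM). ADAMTS10 and ADAMTS2 were not tested in the IVP embryos alone. ADAMTS13 was at the floor in the EEM, with at most 1 count in a library, and was at least 5.11-fold higher in the ED (adjusted p = 3.44e-07). HTRA1 ran from 0 to 5.25 CPM in the ED (median 1.16) and from 0 to 0.169 CPM in the EEM (median 0.0588). It was higher in the ED in 12 of 13 embryos, and IVP10 had no count in either tissue. The log2 fold change of HTRA1 was 4.67 ± 0.61 (adjusted p = 1.41e-05). It was 5.33 in the IVV embryos and was not tested in the IVP embryos, where the ED median was 0.154 CPM. The EEM held at most 9 counts of HTRA1 and at most 7 of ADAMTS10 in a library. The tests of HTRA1, ADAMTS10, ADAMTS13 and ADAMTS20 thus depended on the ED, through which these genes passed the filter on low counts.

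PRSS35 and MMP25 were not called between IVP and IVV ED but were higher in the ED than in the EEM. PRSS35, a trypsin-like protein of the extracellular matrix, had 8.36 to 131 CPM in the ED (median 48.5) and 1.67 to 17.6 CPM in the EEM (median 5.28), and was higher in the ED in 13 of 13 embryos (3.11 ± 0.25, adjusted p = 3.01e-08). MMP25, anchored to the membrane by a glycolipid, had 5 to 32 CPM and 1.74 to 6.51 CPM (2.04 ± 0.19, adjusted p = 1.96e-07), again in 13 of 13. The log2 fold changes of PRSS35 were 3.28 in IVP and 3.09 in IVV embryos, and those of MMP25 were 1.66 and 2.38.

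Some serpins, among them proteins of the blood plasma, were also higher in the ED, and others were not. The plasma serpins SERPING1 and SERPINA10, chosen after their values were seen, were higher in the ED in 4 and 6 of 13 embryos. SERPINA5, the protein C inhibitor, had 0.0201 to 6.69 CPM in the ED (median 1.73) and 0 to 0.417 CPM in the EEM (median 0.0728), and was higher in the ED in 13 of 13 embryos (4.32 ± 0.48, adjusted p = 1.57e-06). SERPINF2, or alpha-2-antiplasmin, had 8.41 to 55.3 CPM (median 26.8) and 2.14 to 18 CPM (median 6.77), and was higher in 12 of 13 (2.10 ± 0.28, adjusted p = 1.43e-05). SERPINE2, or protease nexin, was higher by 0.41 ± 0.11 (adjusted p = 0.0107) in 12 of 13. Hypoblast markers were also higher in the ED for 5 of 9 genes tested and lower for 2, and the part of hypoblast in these serpin values was not tested.

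ADAM19 was higher in the ED in 13 of 13 embryos, with 25.2 to 152 CPM there (median 44.3) and 13.6 to 58.9 CPM in the EEM (median 18.8). Its log2 fold change was 1.13 ± 0.10 (adjusted p = 1.68e-07). MMP14, MMP17 and MMP28 were higher by 1.11 ± 0.32, 0.94 ± 0.27 and 2.34 ± 0.56, each in 11 of 13 embryos. The last pair, with adjusted p of 0.0134 and 0.00454, are outside the rule for naming and were chosen after their values were seen.

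**Figure D4:**
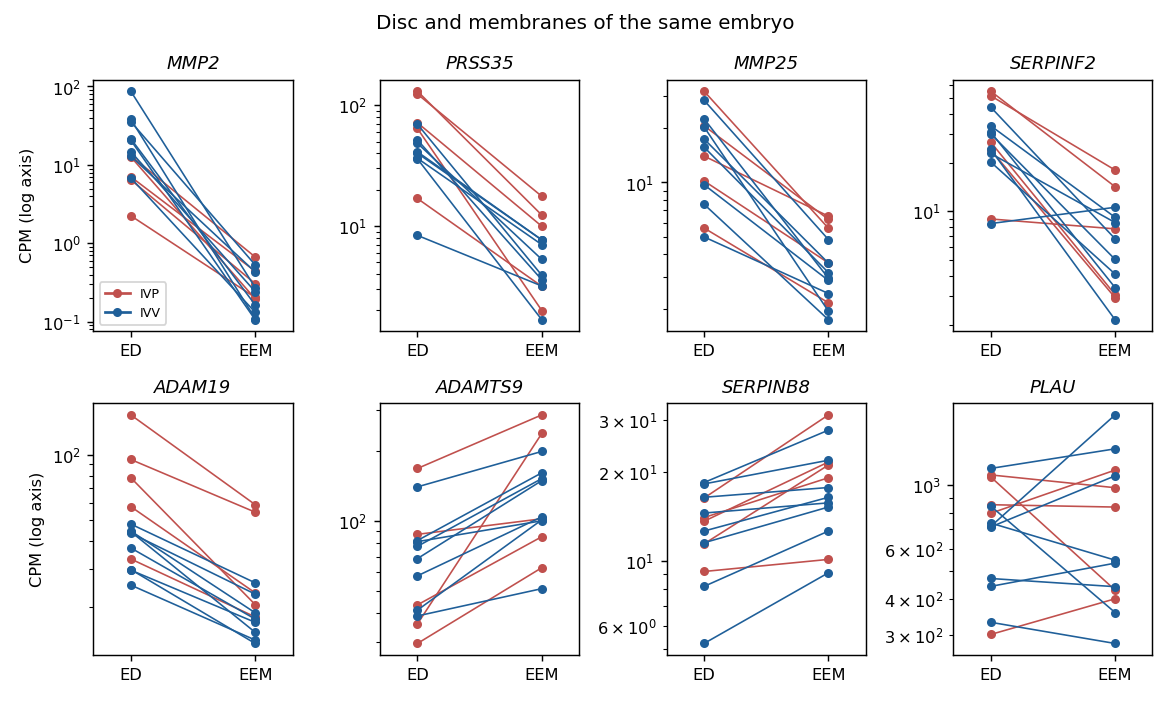
Level of 8 members in the ED and EEM of the 13 embryos with both tissues, as CPM on a log axis, with a line for each embryo (red for 5 IVP, blue for 8 IVV). MMP2, PRSS35, MMP25 and ADAM19 slope down in all embryos and SERPINF2 in 12 of 13, ADAMTS9 and SERPINB8 slope up in all 13, and the PLAU lines cross.

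Of the members lower in the ED, ADAMTS9, a versican-cleaving protease, had 29.6 to 168 CPM in the ED (median 68.7) and 51 to 286 CPM in the EEM (median 104), and was higher in the EEM in 13 of 13 embryos (-0.93 ± 0.15, adjusted p = 0.000162). SERPINB8 (-0.50 ± 0.10, adjusted p = 0.000984) and HTRA2 (-0.37 ± 0.09, adjusted p = 0.00586) were also higher in the EEM in every one of the 13. PRSS50, a serine protease of the testis, had -1.16 ± 0.30 (adjusted p = 0.00853).

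PRSS23 (-0.49 ± 0.11), ADAMTS3 (-0.40 ± 0.11) and SERPINB9 (-0.48 ± 0.15), an inhibitor of granzyme B, had adjusted p of 0.00299, 0.0112 and 0.0202. MMP13, or collagenase 3, had -1.18 ± 0.41 (adjusted p = 0.0458), with medians of 0.16 and 0.364 CPM. ADAM12 was lower in the ED (adjusted p = 0.0441), in 6 embryos against 2 with the opposite order, all 6 of them IVV. Without 1 embryo, ADAM12 stayed called in 6 and MMP13 in 5 of 13 fits (adjusted p up to 0.0997). Trophoblast markers were lower in the ED for 3 of 8 genes, and their part in these values was not tested.

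Many members with high counts were not called between the tissues. PLAU had a log2 fold change of 0.00 ± 0.17 (adjusted p = 0.992). CTSB (0.30 ± 0.14, adjusted p = 0.133), CTSL (0.13 ± 0.16, adjusted p = 0.586), CTSD (0.13 ± 0.12, adjusted p = 0.457), SPINT1 (-0.02 ± 0.13, adjusted p = 0.915) and SPINT2 (-0.06 ± 0.11, adjusted p = 0.704) were likewise not called. The same held for ADAMTS1 (-0.32 ± 0.17, adjusted p = 0.188), PRSS8 (-0.09 ± 0.19, adjusted p = 0.733) and SERPINH1 (0.18 ± 0.11, adjusted p = 0.225).

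Of the other genes of pericellular proteolysis, 10 of 27 proteases, 5 of 18 inhibitors and 5 of 17 receptors and cofactors were higher in the ED, and 1 protease (PAPPA2, -0.32 ± 0.11) was lower. A2M, alpha-2-macroglobulin, had 1.06 to 55.9 CPM over the ED libraries and at most 0.132 CPM in any EEM library (9.00 ± 0.40, adjusted p = 7.43e-12). SPOCK1 was higher by 4.11 ± 0.44, CPZ by 4.96 ± 0.76, PLAT by 3.55 ± 0.68 and the proprotein convertase PCSK5 by 2.13 ± 0.30. A2M and CPZ (at most 0.12 CPM in any EEM library) passed the filter on low counts through the ED. Their fitted values thus rest on EEM levels near 0. LRP1 was higher by 1.52 ± 0.18 (adjusted p = 3.12e-06).

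The last comparison tested whether the IVP against IVV difference was unlike in the tissues, as an interaction in the same 26 libraries. Of 97 members, 2 had a more negative difference in the ED and 0 a more positive one in edgeR, when 0.918% and 0.107% of all genes did. At an unadjusted p under 0.05 there were 17 of the 97 members, when 1727 of all 16784 tested genes had such a p. DESeq2 called 6 members, all more negative in the ED, and its share over all genes is not given here. The median was -0.28 over the members and -0.04 over all genes.

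One was ADAM23, a catalytically inactive ADAM protein that binds integrins. In the ED of the 13 embryos fitted it was at 0 to 0.113 CPM in IVP (median 0, n = 5) and 0.0528 to 0.491 CPM in IVV (median 0.266, n = 8). In the EEM it was at 0 to 0.274 CPM in IVP (median 0) and at the floor in IVV, where 7 of 8 libraries held no count. The interaction was -7.53 ± 1.57 (adjusted p = 0.0267), a fitted value that depends on libraries at 0. Only 2 of these 5 IVP EEM held counts of it, and the call was lost in 5 of 13 fits without 1 embryo (adjusted p up to 0.125). The call was also lost without a filter on low counts. ADAM23 was too low to be tested between IVP and IVV in the ED or the EEM alone, and it entered the interaction fit mainly through the IVV ED.

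MMP14 was the other. In the same 13 embryos its ED medians were 1.64 CPM in IVP and 2.62 CPM in IVV, and its EEM medians were 2.1 and 0.962 CPM, so that the IVV embryos held more of it in the ED than in the EEM (8 of 8) and the IVP embryos were mixed (3 of 5). The interaction was -2.00 ± 0.44 (adjusted p = 0.0322). The call was lost in 6 of 13 fits without 1 embryo, with adjusted p up to 0.113. MMP2 missed the threshold (-2.28 ± 0.55, adjusted p = 0.0509), and the interactions of HTRA1 (-3.13 ± 1.32, adjusted p = 0.388) and ADAMTS13 (-1.51 ± 3.42, adjusted p = 0.963) rest on EEM values near 0.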

How the data were processed

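Raw read counts per gene, deposited by the authors for 30 libraries without normalization, were used. Per the submitters' processing notes and the study's methods, reads were checked with FastQC 0.11.9, filtered, aligned to ARS-UCD1.3 with STAR 2.7.0b and counted with featureCounts (Subread 2.0.3). Symbols came from RefSeq for ARS-UCD2.0 (31630 genes, 99.5% of counts), and its positions served only to find overlapping genes. All columns were used. Library totals were 48713218 to 63037371.

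Counts were filtered with filterByExpr (at least 10 counts), TMM-scaled and tested with edgeR 4.0.16 in R 4.3.3 (quasi-likelihood, Benjamini-Hochberg over all tested genes, threshold 0.05). IVP and IVV were compared within tissue with 1 surrogate variable (sva 3.50.0), the number not being given in the sources used here. ED and EEM, and the interaction, were fitted with embryo as the replicate block, since the titles name the embryo that both tissues came from. Embryos share few cows, so p-values measure the spread between these embryos. Limits from a floor of 3 counts in each library cover counting error only.

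The members and lists were chosen with earlier results of these data known. Genes named were a fixed list of well-known members, the called members in order of p (up to 8 per direction, 10 for ED against EEM) and the 10 most abundant. One gene under this rule is not reported here by name. Alternatives were DESeq2 1.42.0, other surrogate variables, XIST or the title's last letter as a term, upper quartile factors, other filters, halved counts, subsets of embryos, no block and leaving out each embryo. The scripts were tested on simulated data. The study's methylation data were not analysed here.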

Additional observations from a re-analysis of the deposited data

Results flagged for a closer look

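The interaction fit called a difference between IVP and IVV that was unlike in the ED and EEM for ADAM23 (-7.53) and MMP14 (-2.00). Their values and limits are given above, and ADAM23 was too low to be tested in either tissue alone. Single libraries also stood apart from the rest of their group for 12 of 165 groups of values checked over 43 named members, when chance gives about 1 in 20. In the IVV ED, VE19 was the lowest for ADAM17 (29.4 CPM, the others 42 to 54.3), for ADAMTS1 (79.4 CPM, the others 158 to 268) and for SERPINA5 (0.0201 CPM, the others 0.675 to 5.39). VE5 was the lowest for PRSS35 (8.36 CPM, the others 36 to 147), and VE24 for SERPINH1 (173 CPM, the others 212 to 254). In the IVP ED, IVP14 was the lowest for HTRA2 (13.2 CPM, the others 39.5 to 68.3) and PLAU (301 CPM, the others 767 to 1275). IVP10 was the lowest for MMP2 (2.25 CPM, the others 6.47 to 14.3), and IVPF15 for ADAMTS2 (0 CPM, the others 0.148 to 0.598). In the EEM, VE4 held no count of MMP13 (0 CPM, the other IVV libraries 0.234 to 0.556), IVPF13 was the highest IVP library for ADAMTS20 (0.0875 CPM, the others up to 0.0196), and IVP14 for SERPINA5 (0.417 CPM, the others up to 0.0408).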

How the results depend on the processing

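The called members followed one by one (every one in the ED, the EEM and the interaction, and 19 of 35 for ED against EEM) kept their direction under every setting and without each embryo, wherever they were tested. For ED against EEM, 110 of 136 values stayed past the threshold under other settings. The shares were 58 of 90 for the ED, 34 of 45 for the EEM and 7 of 9 for the interaction. Of all 35, 24 were also called without the replicate block, 22 in IVV embryos alone, 7 in IVP embryos alone and 15 with at least 10 counts in every library. In the ED, 8 members fell and 2 rose. The numbers were 4 and 0 with 2 surrogate variables, 4 and 0 with XIST as a covariate, 1 and 0 with the libraries under 1 CPM of XIST (added after seeing the data), 4 and 1 with the title letter as a term, and 1 and 1 with at least 10 counts in every library, which left 64 members. With upper quartile factors 1 rose, without a filter 13 fell, and with halved counts 4 fell. In the EEM, 4 rose and 1 fell. With XIST as a covariate, and with the libraries under 1 CPM of XIST, 0 rose. With 2 surrogate variables 2 fell. With at least 10 counts in every library 2 rose and 0 fell, without a filter 9 rose and 2 fell, and with halved counts 0 fell. The causes were not tested.

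For ED against EEM, 26 were higher and 9 lower in the ED with embryo as the replicate block, and 3 were lower without the replicate block. In IVV embryos alone 3 were lower. In IVP embryos alone, with fewer samples and 78 members tested, 7 were higher and 0 lower. With upper quartile factors 4 were lower, and with at least 10 counts in every library 13 were higher and 5 lower. The interaction called 2 members as more negative in the ED, 1 without the replicate block, 6 in DESeq2, 0 with at least 10 counts in every library, 4 without a filter and 1 with halved counts. With 1 embryo left out, the ED gave 3 to 10 lower and 0 to 2 higher, the EEM 3 to 7 higher and 0 to 2 lower, ED against EEM 23 to 29 higher and 7 to 10 lower, and the interaction 0 to 5. The largest moves came without VE5, VE28, VE29 or VE26 for the fall in the ED (3, 4, 4 and 5), without IVPF14 for the rise in the ED (0), without IVPF13 for the rise in the EEM (7), and without VE29 or VE4 for the interaction (0 and 5). Without VE3, VE5, VE26, VE28 or VE29, 0 fell in the EEM, as ADAM12 was then filtered out, and without IVP10 2 fell. Low counts left 8 of 18 ADAMTS genes, HTRA1 and HTRA3 untested in the EEM.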

Other observations

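Several further members differed between the ED and EEM and were chosen after their values were seen. ADAMTS8, an antiangiogenic metalloproteinase, had medians of 0.193 CPM in the IVP ED and 0.696 CPM in the IVV ED, and was higher in the ED than in the EEM in 12 of 13 embryos (2.92 ± 0.66, adjusted p = 0.00295). ADAMTS14, a relative of the procollagen N-proteinase ADAMTS2, was at the floor in the EEM and at least 4.67-fold higher in the ED. SERPINA1, or alpha-1-antitrypsin, reached 11.7 CPM in the ED of VE6 against a median of 0.862 CPM over the IVV ED. VE6 gave no EEM and was not in the fit of ED against EEM. In the 13 embryos fitted, the ED held at most 1.45 CPM of SERPINA1 and was higher in 11 (2.91 ± 0.59, adjusted p = 0.00122). MMP3, or stromelysin, had no count in any EEM. In the ED it ran to 1.93 CPM in IVP, with a median of 0.136 CPM, and to 0.107 CPM in IVV, with a median of 0.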
